A study of Caenorhabditis elegans with 2 samples.

Results

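pha-4 encodes the FoxA-family forkhead transcription factor PHA-4 of Caenorhabditis elegans, and the question here was where PHA-4 itself was found on its own gene. The gene (WBGene00004013) lies on chromosome V at 20753052 to 20760317 of ce11, on the plus strand, and is 7266 bp long. It is 1 of 19973 nuclear protein-coding genes, and it was taken by name from the Ensembl annotation, with earlier results of these data known. All peaks with a summit from 10 kb upstream of its start to 5 kb past its end were read, a window of 22266 bp. Of the 2920 nuclear peaks in the main list, 2 had their summit in this window, both inside introns of pha-4.

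FoxA proteins bind DNA through a winged-helix forkhead domain and can open closed chromatin for other factors. In the worm embryo PHA-4 gives cells of the pharynx, the muscular feeding organ of the foregut, their identity, and pha-4 mutants lack a pharynx. The gene is also active in the intestine and gonad of older animals, and it is needed for the long life of worms under diet restriction.

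Chromatin immunoprecipitation followed by sequencing (ChIP-seq) had been done on whole L4 larvae, aged 48 h, that were synchronised by L1 starvation after bleaching, in 2 biological replicates. Both came from strain RW12220, whose allele st12220 is a CRISPR insertion written pha-4::TY1::EGFP::3xFLAG at pha-4 on chromosome V. The tagged protein was precipitated with an antibody described as against GFP, while a separate antibody label reads pha-4. There was 1 group, with no untagged or other condition among the samples, and the control reads behind the lists were not analysed here. Whole worms mix all tissues, so a site bound in few cells and a site bound weakly in many cannot be told apart. Read depth was not given, so it is unknown.

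The annotation gives pha-4 3 transcripts. F38A6.1a begins at the gene start and has 8 exons, F38A6.1b begins 2439 bp downstream inside exon 2, and F38A6.1c begins 3858 bp downstream at exon 3. The starts of F38A6.1a and F38A6.1b are those of their start codons, since no 5′ UTR is annotated for either, so true transcription starts may lie further upstream. Intron 1 spans 2247 bp and intron 2 spans 1329 bp, and these 2 are the longest introns. No other protein-coding gene lies within 8705 bp upstream, where dnj-25, a DnaJ-domain gene, is next, or within 4653 bp downstream, where elp-1, a microtubule-associated protein gene, is next. Both are on the minus strand.

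The sequences at 5 sites carry the description that follows. They are the pooled candidates of the window with an irreproducible discovery rate (IDR) of at most 0.05, plus the one with the highest signal value. The IDR is the expected share of calls whose rank would not repeat. Each window has 101 bases centred on the summit, plus strand, and was read from RefSeq's version of ce11. Capitals mark a forkhead word, the PHA-4 consensus T, A or G, T, T, G or T, A or G, C or T, or a GATA word, A or T, G, A, T, A, A or G, on either strand. A window without capitals holds neither.
upstream site, chrV:20752728-20752828: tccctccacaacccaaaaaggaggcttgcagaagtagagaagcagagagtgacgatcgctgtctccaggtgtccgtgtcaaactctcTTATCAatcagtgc
intron 1 site, chrV:20753724-20753824: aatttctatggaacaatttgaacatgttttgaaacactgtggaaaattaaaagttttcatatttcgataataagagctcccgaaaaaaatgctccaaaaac
early intron 2 site, chrV:20755605-20755705: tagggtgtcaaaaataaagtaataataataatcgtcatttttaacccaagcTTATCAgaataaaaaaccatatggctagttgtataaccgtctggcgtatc
late intron 2 site, chrV:20756519-20756619: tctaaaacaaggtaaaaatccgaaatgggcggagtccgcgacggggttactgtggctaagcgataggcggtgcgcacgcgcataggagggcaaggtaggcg
downstream site, chrV:20761844-20761944: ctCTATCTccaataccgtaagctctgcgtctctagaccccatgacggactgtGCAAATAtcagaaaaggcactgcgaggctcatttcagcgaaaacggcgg

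Both pha-4 peaks of the main list lay in an intron. The main list is the authors' less strict thresholded list from both replicates, in which every peak had an IDR of at most 0.01, written here as a −log10 IDR of at least 2. The intron 1 peak had its summit 722 bp downstream of the gene start, at 20753774, and a signal value of 67.1. The early intron 2 peak had its summit 2603 bp downstream, at 20755655, and a signal value of 57.0. It lay 164 bp downstream of the start of F38A6.1b. The signal value is the authors' peak caller's own and was used only within a list.

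These 2 peaks were among the weaker ones of the main list. The intron 1 peak ranked 2617 of 2920 by signal, with 10.4% of nuclear peaks weaker, and the early intron 2 peak ranked 2728, with 6.58% weaker. Their −log10 IDR values, 2.05 and 2.14, were just past the threshold, against a list median of 3.03. The median signal of the 723 main-list summits that lay in introns away from promoters was 102, with an interquartile range of 78.5 to 161, so both pha-4 peaks were below the lower quartile of that class as well. Promoters were taken from gene starts only. The early intron 2 peak, 164 bp past the start of F38A6.1b, was therefore counted as intronic. The lower quartile of promoter summits was 85.1.

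A main-list summit in the gene body was uncommon over all genes. Of the 19973 protein-coding genes, 4.88% had at least 1 and 0.971% had at least 2, as pha-4 did. Among the 1190 genes whose length was within 20% of that of pha-4, 11.1% had at least 1 and 2.86% at least 2. At least 2 intronic summits were found in 0.661% of genes. In the wide window, 33.5% of genes had at least 1 summit and 13.6% at least 2. No test was made, because 1 gene against a share gives none.

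**Figure D1:**
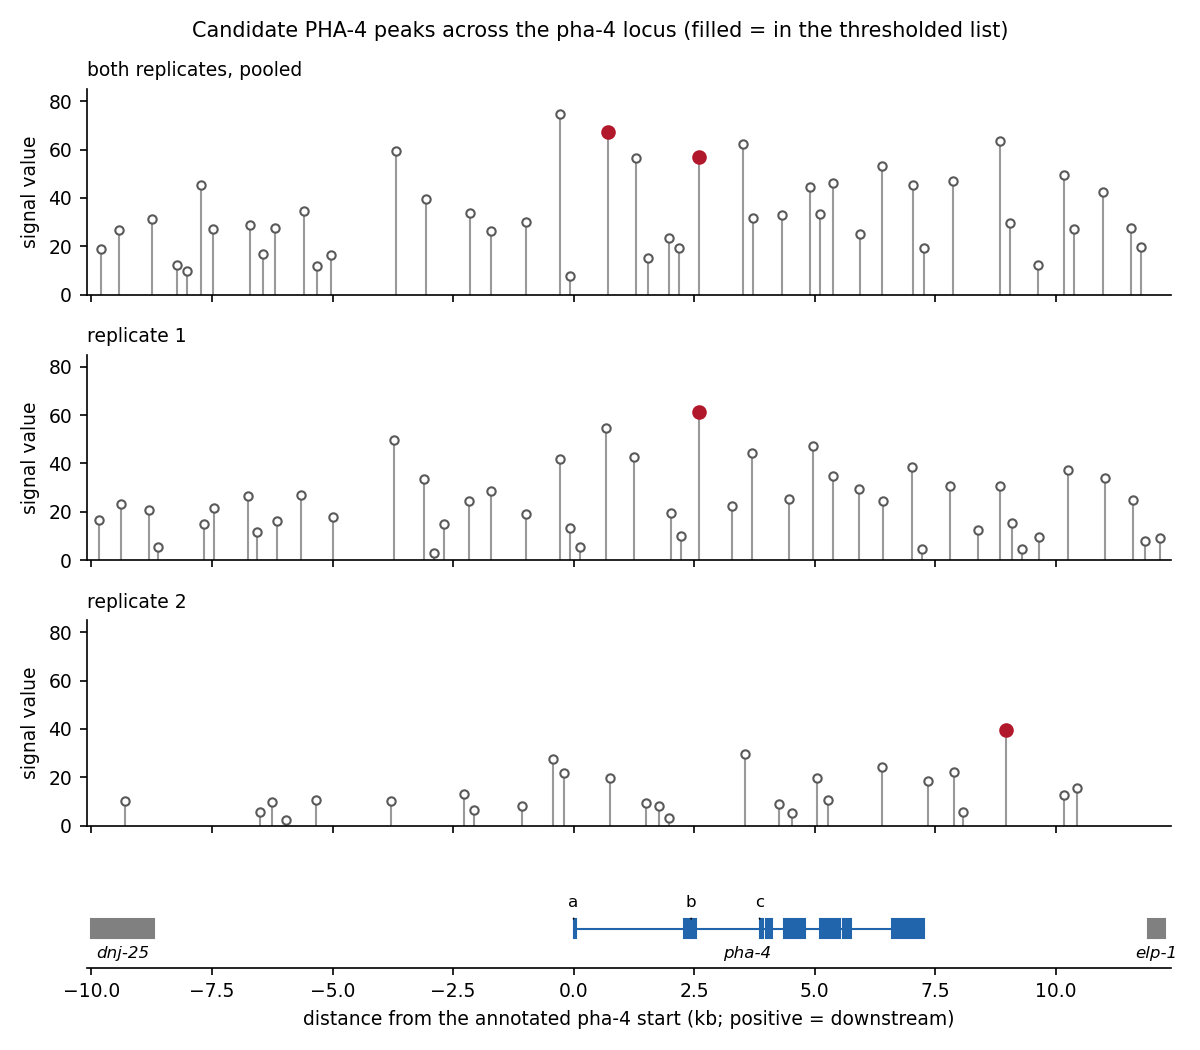
Signal value of every candidate peak (vertical axis, list scale) against distance from the pha-4 start in kb, in the pooled list and in the ranked list of each replicate, with the gene model and the starts of transcripts a, b and c below. Filled points are in the thresholded list: the pair of intronic peaks at 67.1 and 57.0 for both replicates, 61.3 in intron 2 for replicate 1 and 39.5 downstream of the gene for replicate 2.

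The other thresholded lists held fewer peaks, and not the same ones. The conservative list, which rests on ranks between the replicates, held 0 peaks in the window, where 21.2% of genes had at least 1, and 0 in the gene body, where 2.39% did. The replicate 1 list held 1, in intron 2 with its summit 2598 bp downstream of the start and a signal value of 61.3, while 27.5% of genes had at least 1 in the window and 3.56% in the gene body. The replicate 2 list also held 1, but outside the gene, 8967 bp downstream of the start, with a signal value of 39.5. In that list 21.5% of genes had at least 1 summit in the window and 3.02% in the gene body. No position in the window was in both single-replicate lists. The intron 1 peak was in neither, although it was in the main list.

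The ranked lists, which hold candidates before the threshold, show more of what lay behind these calls. They need not hold every candidate of a replicate, as the list ranked between replicates shows below. The pooled ranked list held 45 candidates in the window, of which 15 lay in the gene body, 20 upstream and 10 downstream. With an IDR of up to 0.05, 4 candidates passed in the window, where 45.3% of genes had at least 1, and 3 in the gene body, where 8.82% did. The 2 that joined were the late intron 2 site and the downstream site. Their IDR values were 0.0203 and 0.0194, so they lay just outside the main list.

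The upstream site had the highest signal value of the window and did not pass. Its summit lay at -274 bp from the gene start, within the paired noncoding RNA genes F38A6.6, which overlap on opposite strands. Its pooled signal value of 74.7 ranked 2792 of 81354 nuclear candidates, with 96.6% weaker, and its IDR was 0.220. The pair of values that the pooled IDR step ranked against each other were 22.04 and 52.64, a 2.39-fold difference, where the larger exceeded the smaller by a median of 1.205-fold over main-list peaks and by 1.77-fold at their 95th percentile. Of the 1225 candidates with a signal within 10% of this one, 39.3% were in the main list. In replicate 1 the summit lay at -273 bp with a signal of 42.0 and an IDR of 0.0127. In replicate 2 a pair of overlapping candidates lay there, at -424 bp and -201 bp, with signals of 27.5 and 21.9 and IDR values of 0.0936 and 0.692. Each replicate therefore had candidates just upstream of pha-4, and no thresholded list held one.

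The intron 1 site had the 2nd highest pooled signal of the window. Its rank was 3562 of 81354 candidates (95.6% weaker). The values ranked against each other were 31.9 and 45.7. Of the candidates with a signal within 10% of it, 15.5% were in the main list. Its replicate summits lay at 682 bp (signal 54.8, 97.0% of replicate 1 candidates weaker, IDR 0.0363) and at 748 bp (signal 19.8, 81.1% of replicate 2 candidates weaker, IDR 0.436). It stood lower in replicate 2 than in replicate 1 by its place in each list.

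The early intron 2 site had a lower signal but the steadiest pair. Its pooled rank was 5485 of 81354 (93.3% weaker), below the upstream, intron 1, late intron 2 and downstream sites. The values ranked against each other were 37.1 and 36.2, a 1.03-fold difference. These are not the signals of the replicate lists, so they do not show that the replicates were alike at this site. Only 1.88% of the 3136 candidates of like signal were in the main list. In replicate 1 it was the strongest candidate of the window (signal 61.3, rank 1977 of 84912, 97.7% weaker, IDR 0.00458). In replicate 2 no candidate of the ranked list overlapped it.

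The list that ranked 1 replicate against the other gave this site a pair of values, 61.3 and 18.95. The former is the replicate 1 signal, and the latter is not found in the replicate 2 ranked list. Over all 72493 nuclear candidates of that list, the former value was found in the replicate 1 list for 89.6% and the latter in the replicate 2 list for 58.4%, compared to the 5th decimal. The lack of a candidate in the replicate 2 ranked list therefore does not show that replicate 2 had no signal at this site. In the list ranked between replicates the site had an IDR of 0.0678. The intron 1 site had 0.0606 and the upstream site 0.0699, so all 3 missed 0.05.

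The late intron 2 site ranked more evenly in both replicates. Its pooled summit lay 3517 bp downstream of the gene start, at -341 bp from the start of F38A6.1c, within F38A6.9, a noncoding RNA gene on the minus strand. Its pooled signal was 62.1 (94.7% weaker). The overlapping candidates had signals of 44.5 in replicate 1 (94.6% weaker, summit at 3704 bp) and 29.8 in replicate 2 (92.6% weaker, summit at 3556 bp), so the replicate 1 summit lay 187 bp from the pooled one. A weaker pooled candidate at 3723 bp (signal 31.9, IDR 0.576) lay nearer the replicate 1 summit. In the list ranked between replicates the late intron 2 site had the lowest IDR of the window, 0.0289. The candidate at 3723 bp had 0.0290 there, from the same pair of values, 44.5 and 29.8. Which of these positions the replicate 1 candidate belongs to is thus unclear. The late intron 2 site was in no thresholded list.

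The downstream site was the one that replicate 2 led. Its pooled summit lay 8842 bp from the gene start, in the gap before elp-1. The pooled signal was 63.5 (94.96% weaker). In replicate 2 it was the strongest candidate of the window (signal 39.5, rank 1950 of 47072, 95.9% weaker, IDR 0.00985). In replicate 1 the signal was 30.7 (82.4% weaker, IDR 0.393). The replicate order here was the reverse of that at intron 1.

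**Figure D2:**
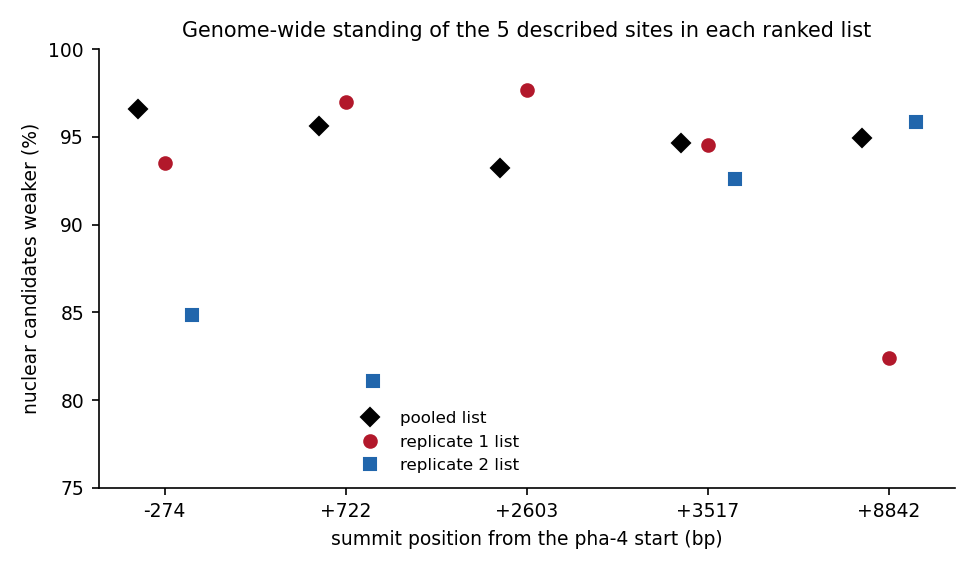
Percent of nuclear candidates with a lower signal (vertical axis, which starts at 75%) for each of the 5 sites, in the pooled list and in the ranked list of each replicate. Replicate 2 has no point at 2603 bp, where its list held no overlapping candidate, which does not show that it had no signal there. At -274 bp its point is the candidate with the nearest summit, at -201 bp (84.8% weaker). The other, at -424 bp, had 91.2% weaker. At 8842 bp 95.9% were weaker in replicate 2 and 82.4% in replicate 1, in lists of 47072 and 84912 candidates.

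The replicates differed in the scale of their signals and in the number of candidates, 84912 against 47072, so neither a percentage nor a rank puts them on 1 scale. At the late intron 2 site the percentage weaker was higher in replicate 1, while the rank was better in replicate 2 (3483 against 4624). At the intron 1 and downstream sites both measures gave the same order. Over the 35856 nuclear pooled candidates with an overlapping candidate in both replicate lists, the ratio of replicate 1 to replicate 2 signal had a median of 1.80 (interquartile range 1.08 to 2.92), and in the pha-4 window it had a median of 2.38 over 30 candidates (1.53 to 3.16), some of which share a partner. It was 1.92 at the upstream site, 2.76 at intron 1, 1.49 at the late intron 2 site and 0.778 at the downstream site. The upstream ratio used the replicate 2 candidate with the nearest summit (21.9 at -201 bp), not the stronger one at -424 bp (27.5). GC content in the 101-base windows was 28.7% at intron 1 and 31.7% at the early intron 2 site, against 46.5% ± 10.1 (SD over 2920 main-list summits), and 4.08% and 7.53% of main-list summits had less. It was 50.5% at the upstream site, 57.4% at the late intron 2 site and 51.5% at the downstream site. Across the 30 candidates GC content and the log2 of that ratio had a Pearson r of 0.00487, against -0.153 over the 35856 nuclear candidates and -0.333 over 2742 main-list peaks with both values. Candidates share their libraries, so these are descriptions.

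**Figure D3:**
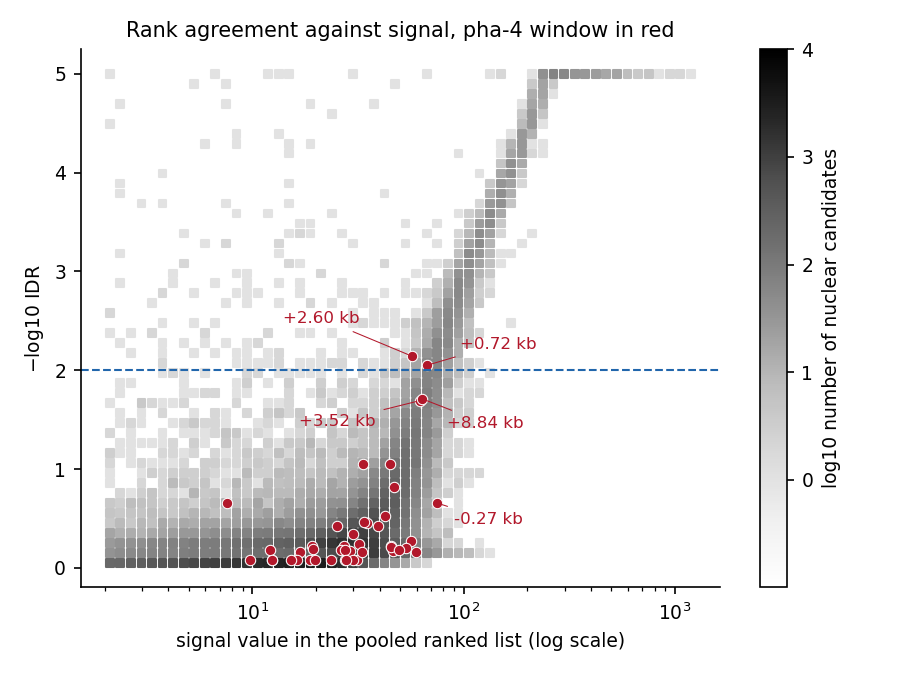
The −log10 IDR (vertical axis) against signal value (log axis) for all 81354 nuclear candidates of the pooled list, as grey squares shaded by number, and for the 45 of the pha-4 window, in red. The dashed line is the threshold of 2, which 2 pha-4 candidates pass, and the candidate 0.27 kb upstream lies far below it at the highest signal of the window.

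The remaining candidates were spread over the whole window. In the gene body the pooled signals ran from 15.2 to 67.1 with a median of 44.6, and 13 of 15 were above the median of all nuclear candidates, 23.2. Of these 15, 5 were in the strongest 10% of all candidates, with signals above 49.5. Among them were a candidate at 1293 bp in intron 1 (signal 56.6, IDR rank 26775) and one at 6399 bp in intron 7 (53.1, IDR rank 36696), neither near the threshold. The candidate at 6399 bp is the nearest one before the end of the coding sequence, 6628 bp from the gene start. The tags are written after the gene's name in the allele, but the exact place of the insertion was not given. In the exons, 2 candidates lay in exon 6 and 1 lay in exon 8, at 7048 bp within the 3′ UTR. The upstream part had a median of 27.3 and the downstream part 28.8, with a single other strong candidate far upstream, at -3690 bp (59.3, IDR rank 43235).

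Candidates were denser around pha-4 than around nearly all other genes. The pooled list held 2.02 per kb in the window, against 0.811 per kb over the nuclear genome and a median of 0.676 over genes. This placed pha-4 at rank 33 of 19973, and 99.8% of genes had fewer per kb. Among the 1190 genes of like length the median was 0.962 and 99.7% had fewer. The window of replicate 1 held 2.07 per kb (99.96% of genes lower) and that of replicate 2 held 1.21 per kb (98.8% lower). Both replicates had more candidates here than nearly all genes had. These are candidates before the threshold, and only 4 of the 45 in the pooled list had an IDR of at most 0.05. Some neighbouring candidates also overlapped and shared a pair of ranked values, such as those at -274 and -67 bp. The density is therefore not a count of repeatable peaks.

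The density was alike in all parts of the window and lower beyond it. It was 2 per kb upstream, 2.06 in the gene body and 2 downstream in the pooled list. In the 50 kb before the window it was 1.44 per kb and in the 50 kb past it 1.38, and the last 924 kb of chromosome V, from 20 Mb on, had 1.02, against a chromosome median of 0.597 over bins of 1 Mb. Replicate 2 was also denser inside the window, at 1.21 per kb, than before it, at 0.56, or past it, at 0.76. The densest window of any gene held 2.26 per kb. Neighbouring genes share much of their windows. The 32 genes with more included 16 on chromosome III and 2 on V.

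**Figure D4:**
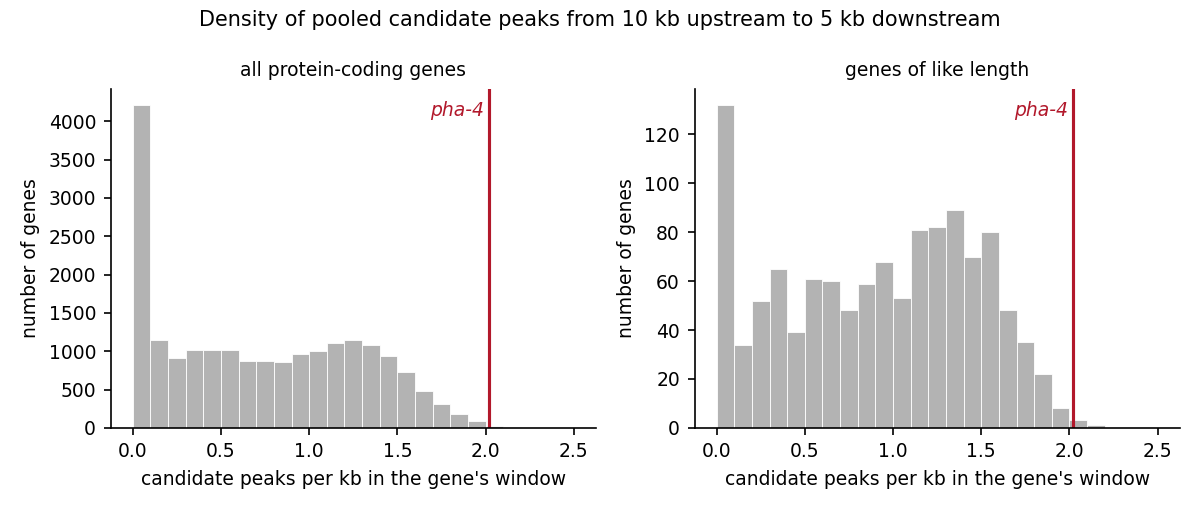
Number of genes (vertical axis) by the number of pooled candidates per kb from 10 kb upstream to 5 kb downstream of each gene (horizontal axis), for all 19973 protein-coding genes and for the 1190 of like length. The red line at 2.02 per kb marks pha-4, which lies at the right edge of both distributions.

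The typical candidate in pha-4 was strong for a gene of its length, while its strongest was less so. The median signal of its gene-body candidates in the pooled list, 44.6, was higher than in 98.3% of the 871 genes of like length with a candidate, whose median was 22.8. Its strongest, 67.1, was higher than in 80.4%, with a median of 47.8. In replicate 1 the corresponding shares were 94.4% and 90.1%. In replicate 2 the median signal of 10.01 was higher than in only 33.05% of such genes, where the median was 11.8, and the strongest, 29.8, higher than in 81.0%. The excess in the typical candidate was thus seen in the pooled list and in replicate 1 and not in replicate 2.

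The forkhead consensus was found at 1 of the 5 sites within 50 bp of the summit. At the downstream site the word TATTTGC, on the minus strand, had its centre 5 bp from the pooled summit. Over the main list 24.3% of summits (95% Wilson interval 22.8 to 25.9) had the consensus in such a window, and over all nuclear windows of 101 bp 25.8% did. In the pha-4 window 64 of 220 such stretches had it (29.1%). Summits and nuclear windows were not matched for GC content. The consensus read backwards, a control pattern, was at 20.7% of main-list summits and 24.4% of nuclear windows. Neither main-list peak of pha-4 held a consensus word anywhere in its deposited interval of 340 bp, while 59.2% of main-list intervals did and 63.3% of nuclear windows of that width. Counting these intervals, the upstream site had TGTTGAT 155 bp and the late intron 2 site TGTTTGT at -150 bp from its summit, and the downstream site had 2 more. TGTTTAC and TGTTTGC were at none of the 5. Within 50 bp they were at 2.05% and 3.42% of main-list summits, against 1.12% and 1.65% of nuclear windows, so their absence from 5 sites says little. Other words of the consensus were less common at summits: TATTTAC (1.47% against 1.84%), TATTTGC (1.78% against 1.84%) and TATTTGT (2.23% against 3.12%).

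GATA words were searched for after the sequences had been seen. They are bound by GATA factors such as ELT-2, the main regulator of intestinal genes. The word TGATAA, minus strand, lay 4 bp from the summit of the early intron 2 peak and 40 bp from that of the upstream site, and AGATAG lay at -45 bp from that of the downstream site. Within 50 bp of the summit 3 of the 5 sites thus had a GATA word, against 18.9% of main-list summits and 19.8% of nuclear windows. Over the 340-bp intervals it was again 3 of 5, against 48.0% of main-list intervals and 52.2% of nuclear windows. The intron 1 and late intron 2 windows had none. These matches say only which letters are there.

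The genes most like pha-4 were sought by the place of their strongest gene-body candidate in the list of each replicate. Likeness was the Euclidean distance between these pairs of percentages, over 2 libraries and 1190 genes of like length. For pha-4 97.7% of replicate 1 and 92.6% of replicate 2 candidates were weaker. The nearest were F27C1.6 (distance 0.104 percentage points), Y45G12B.3 (0.404), dmd-6 (0.469), a DM-domain gene, spk-1 (0.634), an SR protein kinase gene, and pcyt-1 (0.999), which encodes an enzyme of phosphatidylcholine synthesis. All 5 had at least 1 main-list summit in the gene body, with 3 in dmd-6, against 11.1% of genes of like length, but they were chosen for strong candidates, so nothing is read from this count. In pha-4 the strongest candidates of the replicates were different ones, in early and late intron 2.

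Genes that act with pha-4 were taken from 4 lists of 48 genes, and 13 of these (27.1%) had a main-list summit in the gene or up to 1 kb upstream, against 10.4% of all genes. The listed genes were longer, with a median of 4757 bp against 2027 bp, and this was not allowed for. Among regulators upstream of pha-4 in the embryo 4 of 9 had one, among them skn-1 (signal 126), which encodes a factor that specifies the blastomere making much of the pharynx. The Notch receptor gene glp-1, the TCF gene pop-1 and the T-box genes tbx-37 and tbx-38 had none. Among partners and cofactors 3 of 11 had one: htz-1 (230), for the histone variant H2A.Z, daf-12 (221), a nuclear hormone receptor gene, and lin-35 (127), the worm Rb gene.

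Of the foregut targets and identity genes 1 of 11 had one, eat-18 (110), named after its value was seen, which encodes a membrane protein of pharyngeal muscle. In the diet restriction list 5 of 17 did. The strongest were drr-2 (581), a translation factor gene, and wwp-1 (419), an E3 ubiquitin ligase gene, with summits at -161 and -265 bp from the gene starts, followed by the lipase gene lipl-4 (164) and the Atg8 gene lgg-1 (146). All 9 list genes named with a peak had a stronger best peak than pha-4, whose best was 67.1. All but eat-18 were named for their high signal, and only 10.4% of main-list peaks were weaker than 67.1. Nothing is therefore read from this comparison. These peaks are assigned by position, and no expression was measured.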

How the data were processed

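Data from 2 ChIP-seq libraries of 1 group, biological replicates 1 and 2, were taken from the authors' peak lists on ce11, per the labels. The 4 thresholded and 4 ranked lists were deposited with a signal value per peak, on a scale set per list, a score per peak, and in the ranked lists a −log10 IDR, per the deposited notes and the layout of the columns. Each list was derived from filtered alignments and a control file, per the deposited notes, and the thresholded lists also from a further file. Which aligner and caller were run, and how, is not given in the sources used here.

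Mitochondrial peaks were set apart. A peak was placed by its summit. Gene models came from Ensembl release 115 and sequence from RefSeq, both WBcel235, which is ce11, and 0 peaks ran past a chromosome end. Promoters were taken as 1000 bp before to 200 bp after the gene start. Ranks and shares were computed within a list, with 95% Wilson intervals that cover counting error over peaks only. A site was matched between lists by overlap of at least 1 bp and the nearest summit. Counting functions were tested on simulated data. Python 3.11.15, pandas 2.3.3, NumPy 2.4.6 and SciPy 1.17.1 were used.

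The gene, the lists and the settings were chosen with earlier results of these data known. Named genes were pha-4, its neighbours, the 5 most alike genes, and up to 8 list members with and 4 without a peak, and eat-18 was named outside this rule. The gene listed as M05B5.2 was matched through RefSeq to let-522. Comparisons by GC content, by like signal, with the flanks and for GATA words were added after seeing the data. No test was made, since the series has 1 group and pha-4 is 1 gene. Alternatives were the other lists, an IDR of 0.05, other windows and rankings, and each replicate alone.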

Additional observations from a re-analysis of the deposited data

How the results depend on the processing

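The pha-4 peaks depend on the list. The count in the window went from 2 to 0 in the conservative list and to 4 with an IDR of at most 0.05, and was 1 with either replicate left out. The count in the gene body went from 2 to 0 in the conservative list and ran from 0 to 1 with a replicate left out. Both counts stayed at 2 by any overlap, as did that of the window with 5 kb upstream and 2 kb downstream or with summits within 500 bp counted once. Ranked by IDR, 3.32% of main-list peaks stood below the intron 1 peak and 9.11% below the early intron 2 peak, which reverses their order. The former share was 11.8% without peaks at small noncoding RNA genes, and the latter 7.88% among intronic peaks only.

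The share of genes with a summit in the gene body went from 4.88% to 2.39% in the conservative list, 8.82% with an IDR of at most 0.05, 7.38% by any overlap and 11.1% among genes of like length, and ran from 3.02% to 3.56% with a replicate left out. In the window it went from 33.5% to 21.2% and 45.3% in the first pair of lists, and ran from 21.5% to 27.5%. Pathway genes with a peak ran from 9 to 11 with a replicate left out, and were 9 in the conservative list, 19 with an IDR of at most 0.05 and 14 by any overlap.

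Main-list summits with a forkhead word were 11.95% within 25 bp, 44.1% within 100 bp and 20.7% for the reversed pattern, while 1 of the 5 sites had one in each case. Candidates in the window were 4 with an IDR of at most 0.05, and between 27 and 46 with a replicate left out, an alternative chosen after seeing the data. Widths of windows and numbers of peaks and genes set these shares by construction. Otherwise the cause was not tested. No paired analysis was possible because there is 1 group. Read depth is unknown, so how far it limits the weaker sites cannot be stated.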
